A study of Mus musculus with 8 samples.

Results

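The genes described here encode the proteins of the mitochondrial ribosome, measured in embryonic mouse brain, taken as neural tube at E11.5. Members were all symbols of the total RNA table made of Mrpl or Mrps, a number and at most one of the letters a to c. This gave 77 genes of 24420 rows, of which 48 were named for the large subunit (Mrpl) and 29 for the small subunit (Mrps). The polysomal table listed 42 of them, 27 large and 15 small, among its 5804 rows. There were 8 libraries in 4 groups of 2 replicates. The groups were total and polysomal RNA (RNA collected with translating ribosomes) of wild-type embryos (WT) and of embryos lacking both Lin28a and Lin28b, labelled Lin28a-/-;b-/- (dKO). Lin28a and Lin28b are RNA-binding proteins of early embryonic and progenitor cells, and the series title names protein synthesis and the upkeep of neural progenitors as its subject. The labels do not say whether embryos were pooled, which tissue blocks were shared or whether replicates were separate litters, so the p-values reflect just the library-to-library spread, which may be technical.

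The mitochondrial ribosome translates the few messenger RNAs of the mitochondrial genome, all of which encode subunits of the respiratory chain and ATP synthase. Its ribosomal RNAs come from the mitochondrial genome, but all of its proteins are encoded in the nucleus, made on cytoplasmic ribosomes and imported. Some of these proteins have homologues in bacterial ribosomes and others are found only in mitochondria. The small subunit binds and decodes the messenger RNA, and the large subunit forms the peptide bond and passes the growing chain into the inner membrane.

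Column totals were 15060560 to 15768767 counts in total RNA, 14874143 and 15414712 in WT polysomal RNA, and 3740980 and 5164982 in dKO polysomal RNA. Values are given as counts per 1000000 of the column total of genes past edgeR's low-count filter, scaled by each library's TMM factor (CPM). Log2 fold changes are of dKO over WT, from edgeR's quasi-likelihood test with Benjamini-Hochberg adjustment over all genes tested. A gene was called when the adjusted p was under 0.05. The SE was derived from the log2 fold change and the F statistic of that test. The test shares its estimate of spread among genes, so an SE is not the spread of a gene's own replicates alone. The label check gave 73.3 and 72.2 CPM in WT and 6.55 and 7.73 CPM in dKO for Lin28a and 128 and 123 CPM in WT and 48.0 and 55.1 CPM in dKO for Lin28b in total RNA. Both targeted genes were lower in each dKO library than in either WT library, with reads still present. The tissue is a mixture of cell types, and fewer cells of a type cannot be told apart from less RNA per cell. Erythroid markers summed to 4320 and 4390 CPM in WT and 2631 and 2633 CPM in dKO total RNA, with 5 of 5 tested genes lower and Hba-a1 at 0 in all 4 libraries. Progenitor markers summed to 3796 and 3820 CPM in WT and 3391 and 3415 CPM in dKO, with 4 of 8 genes lower and 1 higher. Neuron markers summed to 4049 and 4062 CPM in WT and 3952 and 3968 CPM in dKO, with 2 of 6 genes lower and 2 higher. Of 4 endothelial markers 0 were called, and 1 of 4 mesenchyme and 1 of 3 macrophage markers were lower. The part of these shifts in the results that follow was not tested.

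In WT total RNA the members had a median of 25.0 CPM per kilobase of transcript, 26.8 for the large and 21.3 for the small subunit. Transcript lengths came from 1 GENCODE transcript per gene, so levels of genes with long annotated 3' ends are low on this scale. The highest large-subunit levels were those of Mrpl52 at 157, Mrpl34 at 143 and Mrpl33 at 124 CPM per kilobase. The highest small-subunit levels were those of Mrps21 at 73.1, Mrps17 at 71.1 and Mrps24 at 67.3 CPM per kilobase, so that the top of the small subunit lay below the top of the large. Among tested genes the lowest were Mrpl48 at 1.53, Mrps25 at 3.69 and Mrps5 at 4.45 CPM per kilobase. The members just above these were Mrps35 at 5.33 and Mrpl19 at 7.10 CPM per kilobase.

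A pair of members failed the filter on low counts. Counts of Mrpl23 in total RNA were 0 and 0 for WT and 0 and 2 for dKO. Counts of Mrps36 were 2 and 2 for WT and 5 and 6 for dKO. Mrpl23 encodes a large-subunit protein with a bacterial homologue. Mrps36 carries a small-subunit name, and its protein is now known as a subunit of the alpha-ketoglutarate dehydrogenase complex. GENCODE annotates named pseudogenes of both, and of Mrpl48, whose counts were 106 and 96 for WT and 91 and 77 for dKO. Reads that fit a gene and its copy may have been dropped or split in the authors' counting, so these 3 levels are uncertain, and the part of the copies in them was not tested.

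The first comparison asked how the genotype bears on members in total RNA. Of 75 tested members, 15 fell and 3 rose, and 57 did not pass the test. This is 24.0% called, against 30.7% of all 14594 genes tested. By direction, 16.0% of all genes were lower and 14.7% higher. The median log2 fold change was -0.12 over the members and 0.00 over all genes, and 51 of the 75 were below 0. Both dKO libraries lay below both WT libraries for 37 of 75 members and above them for 11, where all genes gave 31.2% and 31.0%. Leaving out any 1 library gave fewer falls. The share of all genes called in those fits is not given here, so this cannot be read as a result about the members.

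Large-subunit genes made up 11 of the 15 falls and 2 of the 3 rises among 47 tested, with a median of -0.13 and 36 of 47 below 0. Small-subunit genes gave 4 falls and 1 rise among 28 tested, with a median of -0.05 and 15 of 28 below 0. The 16 small-subunit genes classed as having bacterial homologues had a median of 0.04, with 11 above 0. The 12 tested small-subunit genes classed as mitochondria-specific had a median of -0.14, with 10 below 0. Subunits here follow gene names, so these 12 include Mrps18a and Mrps30, whose proteins sit in the large subunit. Mrps18a and Mrps18b were put in this class and Mrps18c with the bacterial homologues, so the contrast depends on that assignment. In the large subunit the same split gave -0.12 over 29 genes and -0.14 over 18. No difference between these classes was tested.

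**Figure D1:**
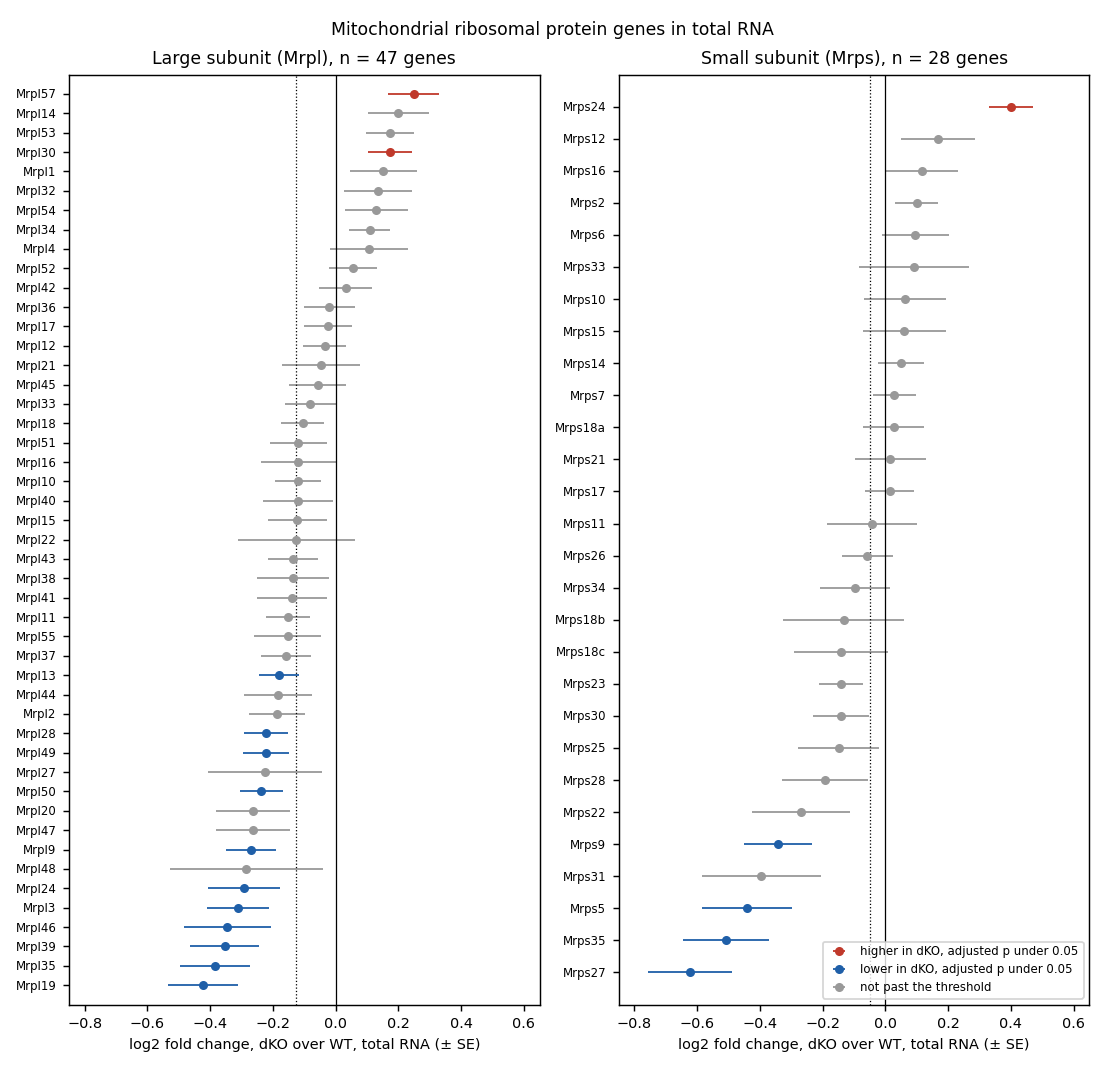
Log2 fold change of dKO over WT in total RNA for each tested member, with bars of 1 SE, large subunit left and small subunit right. Genes are ordered by value, colours mark the calls, and dotted lines are the medians of -0.13 and -0.05. Most large-subunit genes lie left of 0, and the small-subunit values run from Mrps27 at -0.62 to Mrps24 at 0.40.

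The largest fall was that of Mrps27, a pentatricopeptide repeat protein that binds RNA in the small subunit. It stood at 25.0 and 23.8 CPM in WT and 14.1 and 17.6 CPM in dKO in total RNA. Both dKO libraries were below both WT libraries, and dKO over WT gave -0.62 ± 0.13 (SE, adjusted p = 3.33e-05) on the log2 scale. The largest rise was that of Mrps24, a core small-subunit protein near the messenger RNA entry, at 67.0 and 66.8 CPM in WT and 88.6 and 88.0 CPM in dKO. Replicates were nearly equal and the groups were far apart, and dKO over WT gave 0.40 ± 0.07 (SE, adjusted p = 2.33e-07) on the log2 scale. Mrps24 overlaps Urgcp on the same strand (GRCm38 chromosome 11, from 5703983 to 5715680, minus strand, 4 exons). Urgcp itself was not called at 0.10 ± 0.11 (SE, adjusted p = 0.505), and the handling of reads in the overlap is not stated in the labels.

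The promoter windows of this pair, 250 bases before to 50 bases after the annotated start in RefSeq on GRCm38, are shown because they frame the range of total RNA changes. Capitals mark the letters CCGGAAG (the ETS core, bound by GABPA among others) and AAGATGGCG (YY1) on either strand. The windows lie at chr13:99344536-99344835 on the plus strand for Mrps27 and at chr11:5707652-5707951 on the minus strand for Mrps24.
Mrps27: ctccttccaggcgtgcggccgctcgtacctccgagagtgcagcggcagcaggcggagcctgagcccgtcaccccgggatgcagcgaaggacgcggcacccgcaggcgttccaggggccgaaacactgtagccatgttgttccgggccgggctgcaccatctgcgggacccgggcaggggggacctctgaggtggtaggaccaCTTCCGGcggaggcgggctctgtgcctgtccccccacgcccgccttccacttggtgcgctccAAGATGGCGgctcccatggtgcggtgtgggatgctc
Mrps24: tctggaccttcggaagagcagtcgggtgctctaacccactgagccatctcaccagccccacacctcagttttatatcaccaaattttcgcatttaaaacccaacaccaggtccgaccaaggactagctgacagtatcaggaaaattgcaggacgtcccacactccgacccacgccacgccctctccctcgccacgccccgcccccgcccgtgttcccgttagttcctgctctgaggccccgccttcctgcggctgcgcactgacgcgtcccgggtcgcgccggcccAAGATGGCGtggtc
Both windows held the YY1 letters, with the gene's start codon inside them, and only that of Mrps27 held the ETS letters, so the fall and the rise shared one of these matches.

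Windows were found for 68 of the 77 members. The ETS letters were in 33.8% of them and in 12.3% of 16522 protein-coding genes, and the YY1 letters in 11.8% against 2.03%. In 4 of the 8 members with YY1 letters the match spanned the annotated start codon, so a coding start of that wording counts as a match. The E-box CACGTG was in 7.35% of members and 8.09% of all genes, and the NRF1 core in 4.41% against 1.38%. Among the 15 members called in total RNA that had a window, 3 held the ETS letters. A match is a description of the letters and not a binding site.

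Mrps35 and Mrps9, a mitochondria-specific protein and a core protein of the small subunit, also fell. Mrps35 stood at 21.7 and 22.7 CPM in WT and 14.8 and 16.4 CPM in dKO, which gave -0.51 ± 0.14 (SE, adjusted p = 0.00146). Mrps9 stood at 36.1 and 36.3 CPM in WT and 28.8 and 28.3 CPM in dKO, which gave -0.34 ± 0.11 (SE, adjusted p = 0.00743). The groups were apart in both genes, which were called from the same libraries. Mrps5, a core protein of the decoding region, was at 16.2 and 23.7 CPM in WT and 13.8 and 15.5 CPM in dKO, and its 2 WT libraries differed by more than the gap between the lower of them and the dKO libraries. Its value was -0.44 ± 0.14 (SE, adjusted p = 0.00973), and leaving out 1 library at a time gave values from -0.70 to -0.14. The call was lost without WT replicate 2 or dKO replicate 1.

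In the large subunit the largest fall was that of Mrpl19, a core protein with a bacterial homologue. It stood at 34.5 and 36.5 CPM in WT and 27.2 and 25.6 CPM in dKO, and both dKO libraries were lower, with -0.42 ± 0.11 (SE, adjusted p = 0.000822). Mrpl35, also with a bacterial homologue, stood at 33.3 and 35.8 CPM in WT and 24.8 and 28.1 CPM in dKO, with -0.39 ± 0.11 (SE, adjusted p = 0.00299). Mrpl39 resembles threonyl-tRNA synthetase and stood at 34.4 and 37.2 CPM in WT and 27.8 and 28.3 CPM in dKO, with -0.35 ± 0.11 (SE, adjusted p = 0.00581). These 3 genes, called from the same libraries, had no overlap between the groups. Mrpl3, which lies near the peptidyl transferase centre, stood at 47.6 and 43.3 CPM in WT and 38.6 and 34.7 CPM in dKO, with -0.31 ± 0.10 (SE, adjusted p = 0.00696).

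The other falls in the large subunit were smaller. Mrpl46 changed by -0.34 ± 0.14 (SE, adjusted p = 0.0422), Mrpl24 by -0.29 ± 0.11 (SE, adjusted p = 0.0352) and Mrpl9 by -0.27 ± 0.08 (SE, adjusted p = 0.00476). Mrpl50 stood at 95.0 and 82.7 CPM in WT and 76.7 and 74.1 CPM in dKO, with -0.24 ± 0.07 (SE, adjusted p = 0.00332). Leaving out 1 library gave values of Mrpl50 from -0.34 to -0.14, and the call was lost without dKO replicate 2 or WT replicate 1. Mrpl28, Mrpl49 and Mrpl13 were the most weakly changed, at -0.22 ± 0.07, -0.22 ± 0.07 and -0.18 ± 0.06 (SE), with adjusted p of 0.00803, 0.0108 and 0.0173. In every one of these 7 genes both dKO libraries were below both WT libraries, which their selection by the test in the same libraries makes likely.

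Large-subunit rises were limited to Mrpl57 and Mrpl30. Mrpl57, a small mitochondria-specific protein, stood at 50.2 and 59.0 CPM in WT and 58.6 and 71.1 CPM in dKO, so that the lower dKO library lay among the WT values. Its change was 0.25 ± 0.08 (SE, adjusted p = 0.0096). The value ranged from 0.10 to 0.38 with 1 library left out, and the call was lost without dKO replicate 2 or WT replicate 1. Mrpl30, with a bacterial homologue, stood at 76.4 and 70.7 CPM in WT and 85.2 and 80.7 CPM in dKO, with 0.17 ± 0.07 (SE, adjusted p = 0.0462). Among the 18 calls, those of Mrps27, Mrps35, Mrps24 and Mrpl19 were the only ones that passed under every alternative run on them. The fit of all 8 libraries tested only members in the polysomal table, so of these genes only Mrps24 entered it. That fit lost the calls of Mrpl13, Mrpl24, Mrpl39, Mrpl50 and Mrps5.

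**Figure D2:**
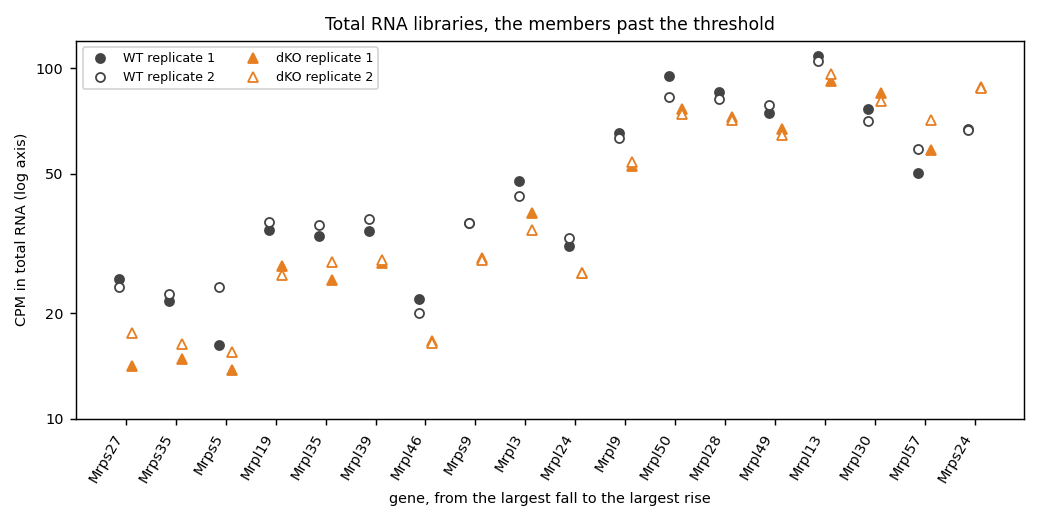
CPM in total RNA (log axis) of the 18 called members in each of the 4 libraries, ordered from the largest fall to the largest rise, with circles for WT, triangles for dKO and filled and open symbols for replicates 1 and 2. The groups overlap for Mrpl57, and Mrps24 shows the tightest replicates.

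Mrps30 and Mrps18a have small-subunit names but sit in the large subunit. Neither was called in total RNA. Mrps30 stood at 50.2 and 54.2 CPM in WT and 48.5 and 46.1 CPM in dKO, with -0.14 ± 0.09 (SE, adjusted p = 0.231), and Mrps18a at 40.1 and 42.5 CPM in WT and 43.2 and 40.9 CPM in dKO, with 0.03 ± 0.10 (SE, adjusted p = 0.88). Grouping them by position left the counts of calls at 11 lower and 2 higher of 49 in the large subunit and 4 lower and 1 higher of 26 in the small.

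The summed level of all tested members was 3333 and 3336 CPM in WT and 3197 and 3166 CPM in dKO total RNA. Large-subunit genes summed to 2318 and 2327 CPM in WT and 2197 and 2173 CPM in dKO, and small-subunit genes to 1015 and 1009 CPM in WT and 1000 and 993 CPM in dKO. The ratio of small to large was 0.438 and 0.434 in WT and 0.455 and 0.457 in dKO. Both dKO ratios were above both WT ratios, and the difference exceeded that between replicates. With 2 libraries a group, an exact permutation test cannot give a two-sided p under 0.333, and no other test of the ratio was run.

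Other genes of mitochondrial gene expression were counted from a list of 76 tested in total RNA. Of 27 assembly and ribosomal RNA modification genes, 10 fell and 0 rose, with a median of -0.30. They included Tfb1m, the dimethyltransferase of the small ribosomal RNA, at -0.55 ± 0.14 (SE, adjusted p = 0.000704), and Ddx28, a helicase of large-subunit assembly, at -0.46 ± 0.15 (SE, adjusted p = 0.0115). Of 17 mitochondrial aminoacyl-tRNA synthetases 5 fell and 0 rose, led by Aars2 at -0.88 ± 0.16 (SE, adjusted p = 2.66e-07). Of 16 translation factors 5 fell and 1 rose. Tufm, the elongation factor that brings tRNAs to the ribosome, changed by -0.65 ± 0.17 (SE, adjusted p = 0.000882), and Slirp, a partner of Lrpprc in RNA stability, by 0.24 ± 0.09 (SE, adjusted p = 0.0278). Of 10 transcription and RNA processing genes 4 fell, among them Polrmt, the mitochondrial RNA polymerase, at -0.60 ± 0.16 (SE, adjusted p = 0.00144). Of 6 mitochondrial ribosomal proteins under other symbols 2 fell, Ptcd3 at -0.36 ± 0.12 (SE, adjusted p = 0.0124) and Aurkaip1 at -0.29 ± 0.08 (SE, adjusted p = 0.00197). These counts stand beside 16.0% of all genes lower, and no list was tested as a set.

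Cytoplasmic ribosomal protein genes, the other ribosome of the cell, were set beside the members. Of 74 tested, 24 were higher and 2 lower, with a median of 0.14. Among 76 nuclear genes of the respiratory chain, 9 were higher and 17 lower, with a median of -0.03. The members' median of -0.12 was thus of the opposite sign to that of the cytoplasmic proteins. The difference between lists was not tested.

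Many members share a start region with another gene. In 23 of 77 the start lay within 1000 bp of that of a gene on the other strand, or overlapped it by at most 300 bp, and both genes were tested in all 23 pairs. Of these, 6 members and 5 neighbours were called, and in 0 pairs were both called, beside the 30.7% of all genes called in total RNA. Mrps27 and Ptcd2 start 81 bp apart, and Ptcd2 stood at 39.2 and 39.6 CPM in WT and 33.4 and 38.5 CPM in dKO, with -0.14 ± 0.10 (SE, adjusted p = 0.333). Mrpl27 and Eme1, whose transcribed starts overlap by 197 bp, gave -0.23 ± 0.18 (SE, adjusted p = 0.376) and -0.95 ± 0.15 (SE, adjusted p = 2.82e-09). Mrpl51 and Ncapd2 start 100 bp apart, and gave -0.12 ± 0.09 (SE, adjusted p = 0.35) and -0.42 ± 0.06 (SE, adjusted p = 4.46e-11). In these pairs the call was on one gene only. In all, 26 members overlap another protein-coding gene, 7 of the 18 called members among them. The library kit keeps strand, but no label states the strand setting of the counting.

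The second comparison was between the genotypes in polysomal RNA. The polysomal table is a selected one: nearly all of its genes differ between genotypes, and among those with a mean of at least 100 counts the log2 ratios of raw dKO to WT counts leave an empty stretch from -2.04 to -1.71, with 2914 genes below it and 2511 above. Calls in it are therefore conditional on the listing and are given as a description. It listed 56.0% of the 75 tested members and 39.3% of all 14594 tested genes. Among genes in the members' central range of WT level, 16.8 to 83.2 CPM, it listed 46.8%. The share was 57.4% for the large and 53.6% for the small subunit. CPM here are over listed genes only.

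All 42 listed members were called, 16 higher and 26 lower, against a background of 99.7% called, with 47.2% higher and 52.5% lower. RLE scaling gave 16 higher and 18 lower, and DESeq2 16 higher and 14 lower, so the balance between directions turned with the tool. All listed genes tested moved the same way, from 2728 higher and 3032 lower in the main fit. They gave 2729 higher and 2396 lower with RLE scaling, and 2729 and 2185 by DESeq2, so the turn was not particular to the members. The median log2 fold change was -0.56 over members and -0.35 over the listed genes. Large-subunit genes had 11 higher and 16 lower, with a median of -0.57, and small-subunit genes 5 higher and 10 lower, with a median of -0.50. Whether the members' split by direction differs from that of all listed genes was not tested.

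The largest falls were in large-subunit genes. Mrpl42, a mitochondria-specific protein, stood at 67.9 and 68.9 CPM in WT and 17.6 and 15.4 CPM in dKO in polysomal RNA, with -2.06 ± 0.15 (SE, adjusted p = 0.000138). Mrpl35 stood at 55.8 and 54.2 CPM in WT and 12.7 and 16.5 CPM in dKO, with -1.89 ± 0.18 (SE, adjusted p = 0.000262). Mrpl32, a core protein that the m-AAA protease matures on import, stood at 51.3 and 51.0 CPM in WT and 17.9 and 11.8 CPM in dKO, with -1.81 ± 0.22 (SE, adjusted p = 0.00055). In these 3 genes, picked for their large falls in the same libraries, the dKO libraries were far below the WT libraries. With each library adjusted for GC content the values were -1.34, -1.01 and -0.83, and all 3 calls held.

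The next falls were those of Mrps33, Mrpl50 and Mrpl39, mitochondria-specific proteins of the small and large subunits. Mrps33 stood at 19.8 and 22.1 CPM in WT and 6.76 and 8.07 CPM in dKO, with -1.48 ± 0.23 (SE, adjusted p = 0.00144). Mrpl50 stood at 156 and 162 CPM in WT and 62.0 and 70.5 CPM in dKO, with -1.26 ± 0.10 (SE, adjusted p = 0.000176). Mrpl39 stood at 69.8 and 76.6 CPM in WT and 23.2 and 37.6 CPM in dKO, with -1.24 ± 0.22 (SE, adjusted p = 0.00225), and its dKO replicates differed by more than 1.5 times. Such replicate differences were found in 6 of the 42 members in dKO and in 0 in WT. With GC adjustment Mrps33 lost its call at -0.63 (edgeR adjusted p = 0.0667), Mrpl50 changed by -0.29 and lost its call when the replicate block was added (edgeR adjusted p = 0.0872), and Mrpl39 changed by -0.73.

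The largest rise was that of Mrpl52, a mitochondria-specific protein, at 92.3 and 83.0 CPM in WT and 266 and 252 CPM in dKO, with 1.56 ± 0.09 (SE, adjusted p = 9.97e-05). Mrps26, a mitochondria-specific protein of the small subunit, stood at 89.3 and 91.0 CPM in WT and 224 and 197 CPM in dKO, with 1.22 ± 0.10 (SE, adjusted p = 0.000162). Mrps15, a core protein of the small subunit, stood at 27.7 and 23.6 CPM in WT and 55.9 and 60.8 CPM in dKO, with 1.19 ± 0.16 (SE, adjusted p = 0.000774). All dKO libraries were above all WT libraries in these genes, which were picked for their large rises in the same libraries. With GC adjustment the values were 0.70 for Mrpl52, 1.55 for Mrps26 and 0.52 for Mrps15, which lost its call when the replicate block was added (edgeR adjusted p = 0.0671).

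Mrps28, Mrpl12 and Mrpl33 followed. Mrpl12, a stalk protein that also binds the mitochondrial RNA polymerase, stood at 146 and 142 CPM in WT and 328 and 312 CPM in dKO, with 1.16 ± 0.07 (SE, adjusted p = 0.000112). Mrps28, a small-subunit protein with a bacterial homologue, stood at 34.8 and 34.7 CPM in WT and 89.7 and 66.8 CPM in dKO, with 1.16 ± 0.17 (SE, adjusted p = 0.00112). Mrpl33, a small large-subunit protein with a bacterial homologue, stood at 91.6 and 90.2 CPM in WT and 194 and 201 CPM in dKO, with 1.12 ± 0.08 (SE, adjusted p = 0.000142). Again no WT library reached the dKO values, which the choice of these genes for their large rises in the same libraries makes likely. With GC adjustment Mrps28 lost its call at 0.45 (edgeR adjusted p = 0.0568), Mrpl12 stood at 0.34 and Mrpl33 stood at 1.80.

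**Figure D3:**
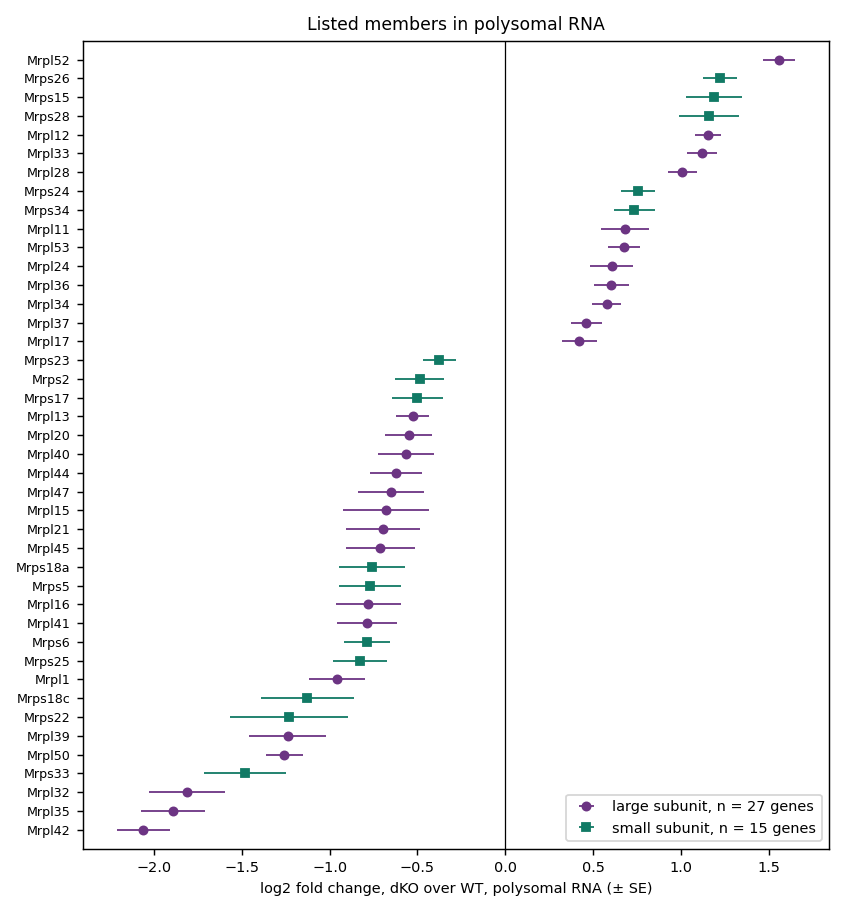
Log2 fold change of dKO over WT in polysomal RNA for the 42 listed members, ordered by value, with bars of 1 SE, circles for the large and squares for the small subunit. Values run from Mrpl42 at -2.06 to Mrpl52 at 1.56, both subunits are found on both sides, and no member lies near 0.

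Members higher and lower in dKO polysomal RNA differed in base composition. The 16 higher members had a median transcript GC content of 54.7% and the 26 lower members 48.5%. At the last position of codons the medians were 70.6% and 56.0%. Across the 42 members the log2 fold change and transcript GC content had a Spearman correlation of 0.65, and across 5743 listed genes 0.77. Genes within a library share its depth and preparation and are not independent replicates, so this is a description without a test. In total RNA the same correlation was 0.24 over 75 members and -0.08 over all genes. Adjusting each library for GC content left 8 members higher and 18 lower of 42, beside 43.3% of all 5777 genes called, 21.4% higher and 21.8% lower.

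The first 90 coding bases of the 2 members with the largest falls and the 2 with the largest rises are shown, 5' to 3', from GENCODE on GRCm38, to let the composition be read. Capitals mark G or C at the last position of a codon.
Mrpl42: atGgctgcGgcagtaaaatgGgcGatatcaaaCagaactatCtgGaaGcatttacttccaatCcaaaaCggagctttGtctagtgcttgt
Mrpl35: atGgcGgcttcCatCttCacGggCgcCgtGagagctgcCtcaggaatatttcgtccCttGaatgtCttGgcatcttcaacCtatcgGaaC
Mrpl52: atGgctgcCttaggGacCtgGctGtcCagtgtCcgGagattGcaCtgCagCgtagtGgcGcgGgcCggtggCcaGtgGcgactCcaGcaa
Mrps26: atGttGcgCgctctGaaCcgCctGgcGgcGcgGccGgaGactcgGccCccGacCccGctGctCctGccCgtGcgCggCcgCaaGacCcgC
Of 30 codons, 11 in Mrpl42, 17 in Mrpl35, 22 in Mrpl52 and 28 in Mrps26 ended in G or C. Over the whole coding sequence the share was 56.3% in Mrpl42, 50.0% in Mrpl35, 56.2% in Mrpl52 and 80.5% in Mrps26, so Mrpl42 and Mrpl52 did not differ on that measure. Their transcripts did, at 46.3% and 56.7% GC.

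**Figure D4:**
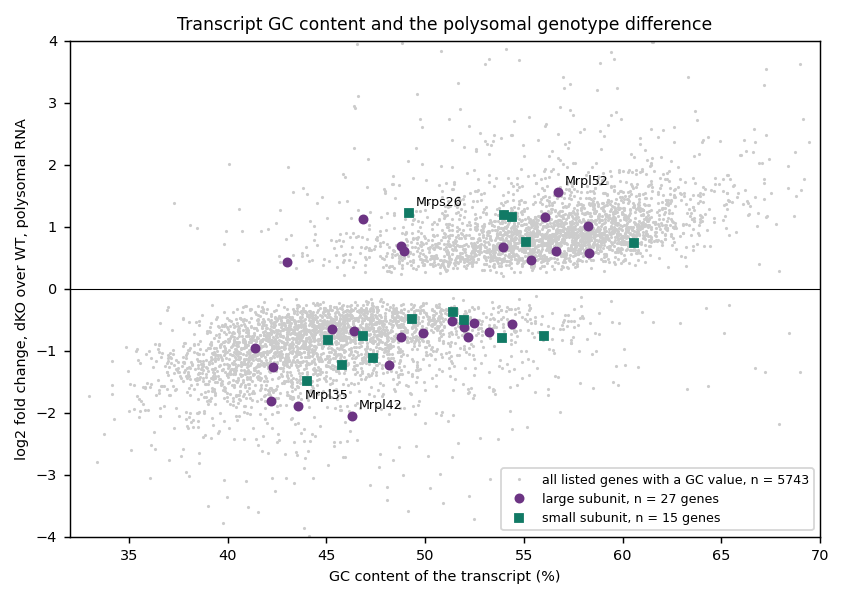
Log2 fold change of dKO over WT in polysomal RNA against transcript GC content, for the 42 members (circles large, squares small subunit) and for 5743 listed genes in grey, 91 of which lie outside the plotted range. Members follow the slope of the grey points, with Mrpl42 and Mrpl35 low and Mrpl52 and Mrps26 high.

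The dKO polysomal libraries stood apart from the others. They were the shallowest, their replicates differed by a chi-square per degree of freedom of 24.8, against 2.89 in WT polysomal RNA and 2.88 and 3.19 in total RNA, and the ribosomal precursor RNA Rn45s took 104700 and 46620 CPM in dKO against 1134 and 1031 CPM in WT. Without either dKO polysomal library the counts of members called were the same, and without either WT polysomal library fewer were called. The share of all genes called in those fits is not given here, so these moves have no background. The part of Rn45s and of base composition in the polysomal results was not tested beyond the adjustment.

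The ratio of small to large summed CPM among listed members was 0.390 and 0.389 in WT and 0.350 and 0.355 in dKO polysomal RNA. In total RNA the same 42 genes gave 0.412 and 0.407 in WT and 0.439 and 0.441 in dKO. The ratio was thus lower in dKO than in WT in polysomal RNA and higher in total RNA, each by more than the replicates differed. With Mrps18a counted in the large subunit, the polysomal ratios were closer, 0.35 and 0.35 in WT and 0.334 and 0.331 in dKO. Both polysomal sums were higher in dKO. Large-subunit genes summed to 2329 and 2325 CPM in WT and 2757 and 2697 CPM in dKO, and small-subunit genes to 909.5 and 905.1 CPM in WT and 964.1 and 956.3 CPM in dKO. No test of these ratios was run. Which genes are listed bears on the polysomal ratio.

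Of the 18 members called in total RNA, 8 were in the polysomal table. In 5 of them both fractions were lower in dKO (Mrpl13, Mrpl35, Mrpl39, Mrpl50 and Mrps5), and Mrps24 was higher in both. Mrpl24 and Mrpl28, both with bacterial homologues, were lower in total and higher in polysomal RNA. Mrpl28 stood at 85.7 and 81.8 CPM in WT and 72.5 and 71.1 CPM in dKO in total RNA and 146 and 148 CPM in WT and 312 and 281 CPM in dKO in polysomal RNA, with -0.22 ± 0.07 and 1.01 ± 0.08 (SE). Mrpl24 stood at 31.0 and 32.7 CPM in WT and 26.0 and 26.0 CPM in dKO in total RNA and 46.4 and 44.7 CPM in WT and 66.2 and 72.3 CPM in dKO in polysomal RNA, with -0.29 ± 0.11 and 0.61 ± 0.12 (SE). With GC adjustment the polysomal values were 0.98 for Mrpl24, 0.07 for Mrpl28 (edgeR adjusted p = 0.411), -0.10 for Mrps5 (edgeR adjusted p = 0.696) and 0.00 for Mrps24 (edgeR adjusted p = 0.993), and only Mrpl24 of these 4 kept its polysomal call. Mrpl24 lost it without WT polysomal replicate 1 or 2, and Mrps5 without either of these and by DESeq2. Mrpl13 lost its polysomal call by DESeq2 (adjusted p = 0.0535). The comparisons share no library.

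The test of the difference, the genotype by fraction interaction in a fit of the genes in both tables, gave 16 members higher and 21 lower of 42. This is 88.1% called against 89.5% of 5768 genes (43.7% higher, 45.8% lower), close to the background. The median was -0.37 over members and -0.13 over all genes. The split was 16 to 14 with RLE scaling and 16 to 12 by DESeq2, so the balance turned. Over all genes it turned as well, from 2520 to 2640 in the main fit to 2626 to 2383 with RLE scaling and 2604 to 2293 by DESeq2. Fewer members were lower when any 1 of the total RNA or WT polysomal libraries was left out. The share of all genes called in those fits is not given here. The largest values were -2.06 ± 0.16 for Mrpl42, -1.92 ± 0.22 for Mrpl32 and -1.53 ± 0.28 for Mrps33 below 0, and 1.54 ± 0.11 for Mrpl52, 1.39 ± 0.21 for Mrps28 and 1.32 ± 0.12 for Mrps26 above 0 (log2 ± SE). The adjusted p were 2.31e-06, 2.85e-05, 0.000575, 1.74e-06, 0.000175 and 5.68e-06 by edgeR's quasi-likelihood test. GC adjustment left 9 higher and 15 lower, beside 40.3% of all genes called, 20.0% higher and 20.3% lower. Under that adjustment Mrps33 lost its call, and the other 5 kept theirs under all alternatives run.

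**Figure D5:**
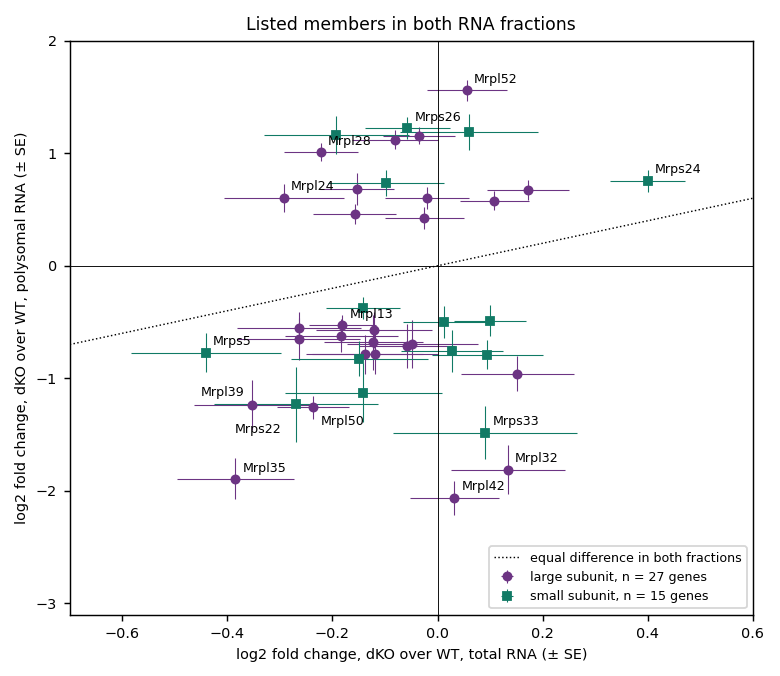
Log2 fold change of dKO over WT in total RNA (horizontal) and in polysomal RNA (vertical) for the 42 listed members, with bars of 1 SE and a dotted line of equal change. Total RNA values stay between -0.44 and 0.40, while polysomal values span -2.06 to 1.56, and Mrpl24 and Mrpl28 lie at the upper left.

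The last comparison set polysomal against total RNA within each genotype. In WT, 1 of 42 members was higher in polysomal RNA and 1 lower, against 11.9% called among 5768 genes, 3.47% higher and 8.48% lower. More members were called without either dKO polysomal library, which enter the shared estimate of spread, and fewer without any of the other 6 libraries. The share of all genes called in those fits is not given here, so these calls cannot be set against the 11.9%. The median was 0.14 over members, with 33 of 42 above 0, and 0.00 over all genes. Mrpl41, a large-subunit protein specific to mitochondria, changed by 0.47 ± 0.12 (SE, adjusted p = 0.0354) and lost its call in 6 of the 8 fits that left out a library and in the blocked fit. Mrps24 changed by -0.52 ± 0.07 (SE, adjusted p = 0.0012) and was called in all alternatives. Its libraries had 67.0 and 66.8 CPM in WT total RNA and 70.9 and 67.9 CPM in WT polysomal RNA, each over its own table.

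In dKO, 15 members were higher and 14 lower in polysomal than in total RNA. This is 69.0% called, below the 90.0% of all genes (43.1% higher, 46.9% lower). With GC adjustment the split was 10 to 16, beside 55.9% of all genes called, 28.0% higher and 27.9% lower. Without dKO polysomal replicate 2 the members lower outnumbered those higher, and the share of all genes called in that fit is not given here. The median was -0.19 over members and -0.13 over all genes. Large-subunit genes gave 11 higher and 7 lower, and small-subunit genes 4 higher and 7 lower. Both WT and dKO comparisons use only listed genes. They share no library, but the interaction is made of both, so these values are not further evidence for it.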

How the data were processed

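Total and polysomal RNA came as a table each of unnormalized counts, whole numbers of reads for every gene symbol, as deposited by the authors. The submitters' processing notes list TopHat, HTSeq and FastQC with the builds mm9, mm10 and GRCm38, without roles. Per the labels' protocols the kit was strand-specific. The sources used here do not state the counting's strand setting or how polysomes were collected.

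Counts were fitted with edgeR 4.0.16 (R 4.3.3, limma 3.58.1), with TMM scaling, edgeR's filter on low counts and the quasi-likelihood test, adjusted by Benjamini-Hochberg over all genes tested. Total RNA used its 4 libraries and polysomal RNA its 4. The interaction and the comparisons between fractions used all 8 libraries and the 5790 genes in both tables, left without symbols that had become dates. The edgeR function with TMM scaling was run on simulated data for the genotype comparisons and the interaction. The fraction comparisons and the other tools, scalings and adjustments were not simulated. The members and gene lists were chosen with earlier results of these data known. The rule for named genes took all members called in total RNA, the 6 highest and 6 lowest called in polysomal RNA, in the interaction and between WT fractions, the extremes in level and the leading genes of the mitochondrial translation list.

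Transcript length, GC content and positions came from GENCODE M21 (GRCm38), which matched 98.4% of symbols, and promoter windows from RefSeq on GRCm38. Alternatives were other scalings, DESeq2 1.42.0, limma-voom, other filters, GC adjustment (loess with a span of 0.5), the replicate number as a block and leaving out each library. A left-out library leaves a lone sample that is assumed to vary like the others.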

Additional observations from a re-analysis of the deposited data

Results flagged for a closer look

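The genotype difference was tested between the fractions, and the members named here were those whose polysomal and total RNA differences were unequal (adjusted p under 0.05 in edgeR's quasi-likelihood test), among those named in the report or taken by the rule for named genes. Values are the polysomal minus the total RNA log2 difference of dKO over WT. Below 0 were Mrpl42 at -2.06, Mrpl32 at -1.92, Mrps33 at -1.53, Mrpl35 at -1.46, Mrpl1 at -1.07, Mrpl50 at -0.98, Mrpl39 at -0.84, Mrps18a at -0.74, Mrps25 at -0.64, Mrpl41 at -0.62, Mrps17 at -0.47 and Mrpl13 at -0.31. Above 0 were Mrpl52 at 1.54, Mrps28 at 1.39, Mrps26 at 1.32, Mrpl28 at 1.27, Mrpl33 at 1.24, Mrpl12 at 1.23, Mrps15 at 1.17, Mrpl24 at 0.94, Mrpl34 at 0.51 and Mrps24 at 0.39. Of all genes in this fit, 89.5% were called. With GC adjustment 16 of these 22 members kept a call, but Mrpl34 at -0.46 and Mrps24 at -0.36 then had the opposite sign. The 6 that lost their calls were Mrpl1 at -0.07, Mrpl50 at -0.05, Mrpl39 at -0.42, Mrps15 at 0.51, Mrps33 at -0.75 and Mrps25 at 0.07. Groups of 2 libraries are too small for a check of single libraries that stand apart.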

How the results depend on the processing

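For single members, 852 of the values under alternatives stayed on their side of the threshold, 98 fell below it and 8 of members called in the main fit changed direction. The 852 include values of members not called in the main fit, whatever their direction. Mrps18a in total RNA, at 0.027 in the main fit, reached -0.019 under an alternative. The 8 were those under GC adjustment without and with the replicate block, which gave -0.001 and -0.003 for Mrps24 in polysomal RNA and, in the interaction, -0.455 and -0.456 for Mrpl34, -0.362 in both for Mrps24, and 0.073 and 0.075 for Mrps25. The balance of members higher and lower turned by DESeq2 in polysomal RNA (16 to 14), with RLE scaling (16 to 14) and DESeq2 (16 to 12) in the interaction, and with GC adjustment between dKO fractions (10 to 16, and 10 to 15 with the block). With RLE scaling and DESeq2 the balance of all genes turned too, in polysomal RNA and in the interaction. The interaction balance also turned without dKO total replicate 2, WT total replicate 1 or either WT polysomal library. It was even without dKO total replicate 1 or WT total replicate 2. Between dKO fractions it turned without dKO polysomal replicate 2 and was even without replicate 1. Counts are given below as higher or lower in dKO, or in polysomal RNA for the fraction comparisons. The cause of each move was not tested, except where fewer members or libraries entered.

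In total RNA, DESeq2 gave 1 member higher, with 0 large higher and 7 large lower, and the fit of all 8 libraries, which tests only the 42 listed members, gave 1 higher and 2 lower (large 0 and 2, small lower 0). Large-subunit rises were 1 with RLE scaling, without the filter and with the replicate block. In polysomal RNA, DESeq2 gave 14 lower (large 8, small 6). GC adjustment gave 8 higher (large 6, small 2) and 5 small lower, and with the replicate block 7 higher (large 6, small 1), 17 lower and 4 small lower. RLE scaling moved the median of all genes there by 0.24, DESeq2 by 0.24 and GC adjustment by 0.34, and a scaling centred on the empty stretch, chosen after seeing the data, by -0.07. In the interaction, GC adjustment, with or without the replicate block, gave 9 higher (large 7, small 2) and 5 small lower. DESeq2 gave 12 lower (large 7, small 5), and RLE scaling 7 large lower.

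Between WT fractions, members higher in polysomal RNA were 2 with upper-quartile scaling and DESeq2 (large 2), 5 with limma-voom (large 4, small 1), 0 with the replicate block (large 0), 4 with GC adjustment (large 3, small 1) and 3 with GC adjustment and block (large 3). Limma-voom gave 2 lower (large 1). Between dKO fractions, GC adjustment gave 2 small higher, also with the replicate block.

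Leaving out 1 library at a time, the counts that moved by over 1.5 times ranged as follows. The share of all genes called in each of these fits is not given here, so the ranges have no background. In total RNA there were 8 to 12 members lower, 1 to 2 large higher and 4 to 8 large lower. In polysomal RNA there were 16 to 26 members lower and 5 to 10 small lower. In the interaction there were 8 to 13 large lower. Between WT fractions there were 0 to 12 members higher, 1 to 2 members lower, 0 to 10 large higher, 0 to 1 large lower and 0 to 2 small higher. Between dKO fractions there were 5 to 11 large lower and 4 to 7 small lower.

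Replicate numbers did not pair the libraries, with correlations of their deviations from -0.04 to 0.06. With the replicate block the counts were 2 higher and 14 lower in total RNA, 16 and 26 in polysomal RNA and 16 and 19 in the interaction. Groups of 2 libraries, the shallow dKO polysomal libraries and the choice of listed genes limit what can be read from polysomal values.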
